A study of Rattus norvegicus with 65 samples.

Results

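The corticotropin-releasing hormone (CRH) family and the glucocorticoid response were followed through 10 genes in hypothalamic RNA from 65 rats. The 10 were taken by symbol from a table of read counts for 38513 genes. They are the peptides *Crh*, *Ucn* and *Ucn3*, the receptors *Crhr1* and *Crhr2*, the binding protein *Crhbp*, the steroid receptors *Nr3c1* and *Nr3c2*, and 2 genes that glucocorticoids raise, *Fkbp5* and *Sgk1*. Each of the 10 was in the table once, and each passed the filter on low counts, as did 21871 genes in all.

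Hypothalami were collected from adult male Wistar rats that were 9 to 10 weeks old when the study began, and 1 library was made per animal. The animals had 6 weeks of high-fat diet before they were assigned. The lean group is taken here to be the animals that the study calls the low-fat-diet-only group. The methods of the study do not describe the diet of that group. Its mean body weight at the start of treatment, as the study gives it, was above that of the sham group. Tissue was taken 4 weeks after the intervention, following 10 h of fasting. The 2 experimental periods, labelled batch A and batch B, do not hold all the same groups, so batch is a term of the fit, and values of members that carry a result are given by batch; ranges and medians over all libraries hold both batches.

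The surgical arm had 14 rats with Roux-en-Y gastric bypass (RYGB), in which food is routed past most of the stomach and the upper intestine (11 in batch A, 3 in batch B). It also had 11 rats with sham surgery (5 in batch A, 6 in batch B) and 7 body-weight-matched rats (BWM, batch A). The food of the BWM rats was restricted with the aim of a weight course like that of RYGB rats. The abstract of the study lists the BWM rats as sham-operated as well, while its methods name only their food restriction. The hormone arm had 5 rats given liraglutide, an agonist of the glucagon-like peptide receptor, at 0.4 mg/kg/day by injection with a saline minipump (batch B). Another 4 rats received the gut peptide PYY3-36 at 0.1 mg/kg/day by minipump with saline injections (batch B), and 10 received both agents (5 in each batch). The controls of that arm were 8 saline-treated rats (3 in batch A, 5 in batch B). The 6 lean rats were all in batch A. PYY3-36, liraglutide, BWM and lean animals therefore each come from 1 batch only.

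CRH is made by neurons of the paraventricular nucleus, among others, and its release at the base of the hypothalamus drives the pituitary to secrete corticotropin, which in turn makes the adrenal gland release glucocorticoids. Glucocorticoids bind the mineralocorticoid receptor with high affinity and the glucocorticoid receptor with lower affinity, and through these they raise or lower target genes and restrain the axis that released them. The urocortins are related peptides that act on the same receptors, with urocortin 3 acting at CRH receptor 2, and in the hypothalamus the family is known for linking stress with food intake.

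Promoter sequences are shown for the peptide and target genes around which the results below turn, so that the control regions can be compared. RefSeq promoters of the build GRCr8 were matched for 8 of the 10 genes, with 12 start sites in all; *Crh* and *Nr3c2* had no entry. Each run below is the 250 bases before the start site, 5′ to 3′ on the gene's strand, with 1 motif in capitals. The *Ucn* promoter is chr6:30957836-30958085 on the plus strand, and its capitals mark the cAMP response element TGACGTCA.
Ucn: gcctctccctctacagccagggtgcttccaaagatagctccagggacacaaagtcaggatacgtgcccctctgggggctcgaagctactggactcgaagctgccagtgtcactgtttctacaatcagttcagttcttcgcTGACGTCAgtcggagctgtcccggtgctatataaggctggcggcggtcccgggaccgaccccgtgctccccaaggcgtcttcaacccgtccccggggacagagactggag
The *Ucn3* promoter is chr17:71219406-71219655 on the plus strand, and its capitals mark the shorter cAMP response half-site TGACG.
Ucn3: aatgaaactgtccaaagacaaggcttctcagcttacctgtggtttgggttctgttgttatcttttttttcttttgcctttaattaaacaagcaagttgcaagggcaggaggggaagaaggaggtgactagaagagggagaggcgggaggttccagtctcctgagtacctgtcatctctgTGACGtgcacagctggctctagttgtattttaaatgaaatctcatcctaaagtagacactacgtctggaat
The *Fkbp5* promoter is chr20:6543556-6543805 on the minus strand, and its capitals mark a CCAAT box.
Fkbp5: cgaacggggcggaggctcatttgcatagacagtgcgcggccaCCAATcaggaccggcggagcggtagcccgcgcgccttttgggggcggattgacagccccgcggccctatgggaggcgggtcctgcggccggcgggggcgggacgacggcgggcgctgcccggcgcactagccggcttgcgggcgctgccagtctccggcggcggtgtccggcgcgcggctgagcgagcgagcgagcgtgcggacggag
The *Sgk1* promoter is chr1:24804832-24805081 on the minus strand, 1 of 3 listed starts of the gene, and its capitals mark the TATA box TATAAA.
Sgk1: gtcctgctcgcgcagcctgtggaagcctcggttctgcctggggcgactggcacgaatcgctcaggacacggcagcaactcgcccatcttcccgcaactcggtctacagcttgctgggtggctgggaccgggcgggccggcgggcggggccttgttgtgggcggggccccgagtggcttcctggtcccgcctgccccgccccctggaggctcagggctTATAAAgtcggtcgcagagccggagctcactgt

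The same windows of 33469 promoters were searched on both strands for comparison. Members here are the 8 with an entry, so *Crh* and *Nr3c2* were not searched. The cAMP response element TGACGTCA was in 1.59% of them and, among the members, in *Ucn*, where it began 110 bases before the start. Its half-site TGACG, or CGTCA on the other strand, was in 18.2% of all promoters and in 4 members, *Crhbp*, *Crhr2*, *Ucn* and *Ucn3*; the element contains the half-site. The CCAAT box, or ATTGG, was in 34.0% of all promoters and in *Crhr2* and *Fkbp5*. The TATA box TATAAA, or TTTATA, was in 12.9% and, among the members, in *Sgk1*. The half-site bound by glucocorticoid receptors, AGAACA or TGTTCT, was in 17.5% of all promoters and in 0 members, and the palindrome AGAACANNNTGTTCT was in 0.012% and in 0 members. A match is a description of letters in this window only.

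The positions of the genes in Rnor_6.0, the build of the counts, follow the annotation in the deposited table, and the reads counted for each fall in its exons. *Crh* lies at chr2:104459999-104461863 on the minus strand, and *Crhbp* at chr2:25141471-25153334, also minus. *Ucn* is a short gene at chr6:26602144-26602974 (plus, 570 bases of exon) and *Ucn3* lies at chr17:69959879-69966532 (plus, 1230 bases). The CRH receptors are at chr10:92191473-92233662 (*Crhr1*, plus) and chr4:85286371-85329374 (*Crhr2*, minus). *Nr3c1*, with the longest exon sequence of the 10 (7709 bases), is at chr18:31728373-32704022 (minus), and *Nr3c2* is at chr19:34408275-34761003 (minus). *Fkbp5* is at chr20:7976704-8097290 (minus) and *Sgk1* at chr1:24185451-24302309 (minus).

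Library totals ran from 20040821 to 36539714 counts (median 27379758), and the median was higher in batch A (29571483) than in batch B (23385849). The label hypothalamus was checked against 12 genes of hypothalamic neurons, among them *Oxt*, *Avp*, *Pmch*, *Hcrt* and *Trh*. Their summed level was 439.6 to 8201 CPM (counts per 1000000 of the library) in 53 libraries and 12.1 to 167.7 CPM in the other 12, which are called the low libraries here. In the 12, *Rax* was at 0 counts in 9, *Hmx2* in 8, *Otp* in 5, *Sim1* in 2 and *Hcrt* in 2, and the summed level of 6 striatal markers had a median of 762 CPM, against 242 CPM in the 53. They are 3 of 11 sham, 2 of 8 saline, 2 of 6 lean, 2 of 5 liraglutide, 1 of 7 BWM, 1 of 4 PYY3-36, 1 of 10 PYY3-36 + liraglutide and 0 of 14 RYGB libraries. Results that rest on these libraries are given with and without them.

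Per kb of exon, *Sgk1* was the most abundant member, with a median level over the 65 libraries of 18.6 CPM per kb. *Nr3c1* followed at 9.93 CPM per kb and *Fkbp5* at 7.61 CPM per kb. *Crh* (4.59), *Nr3c2* (4.34), *Crhbp* (3.97), *Crhr2* (3.12) and *Crhr1* (2.95) lay close together on that scale, above *Ucn3* (1.65) and *Ucn* (0.169). The median count per library was 1979 for *Sgk1* and 3 for *Ucn*. All other levels below are CPM, scaled by edgeR's trimmed mean of M-values, and are compared only within a gene. The dissected tissue holds many cell types, so a level cannot tell fewer cells of a type from less RNA per cell.

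**Figure D1:**
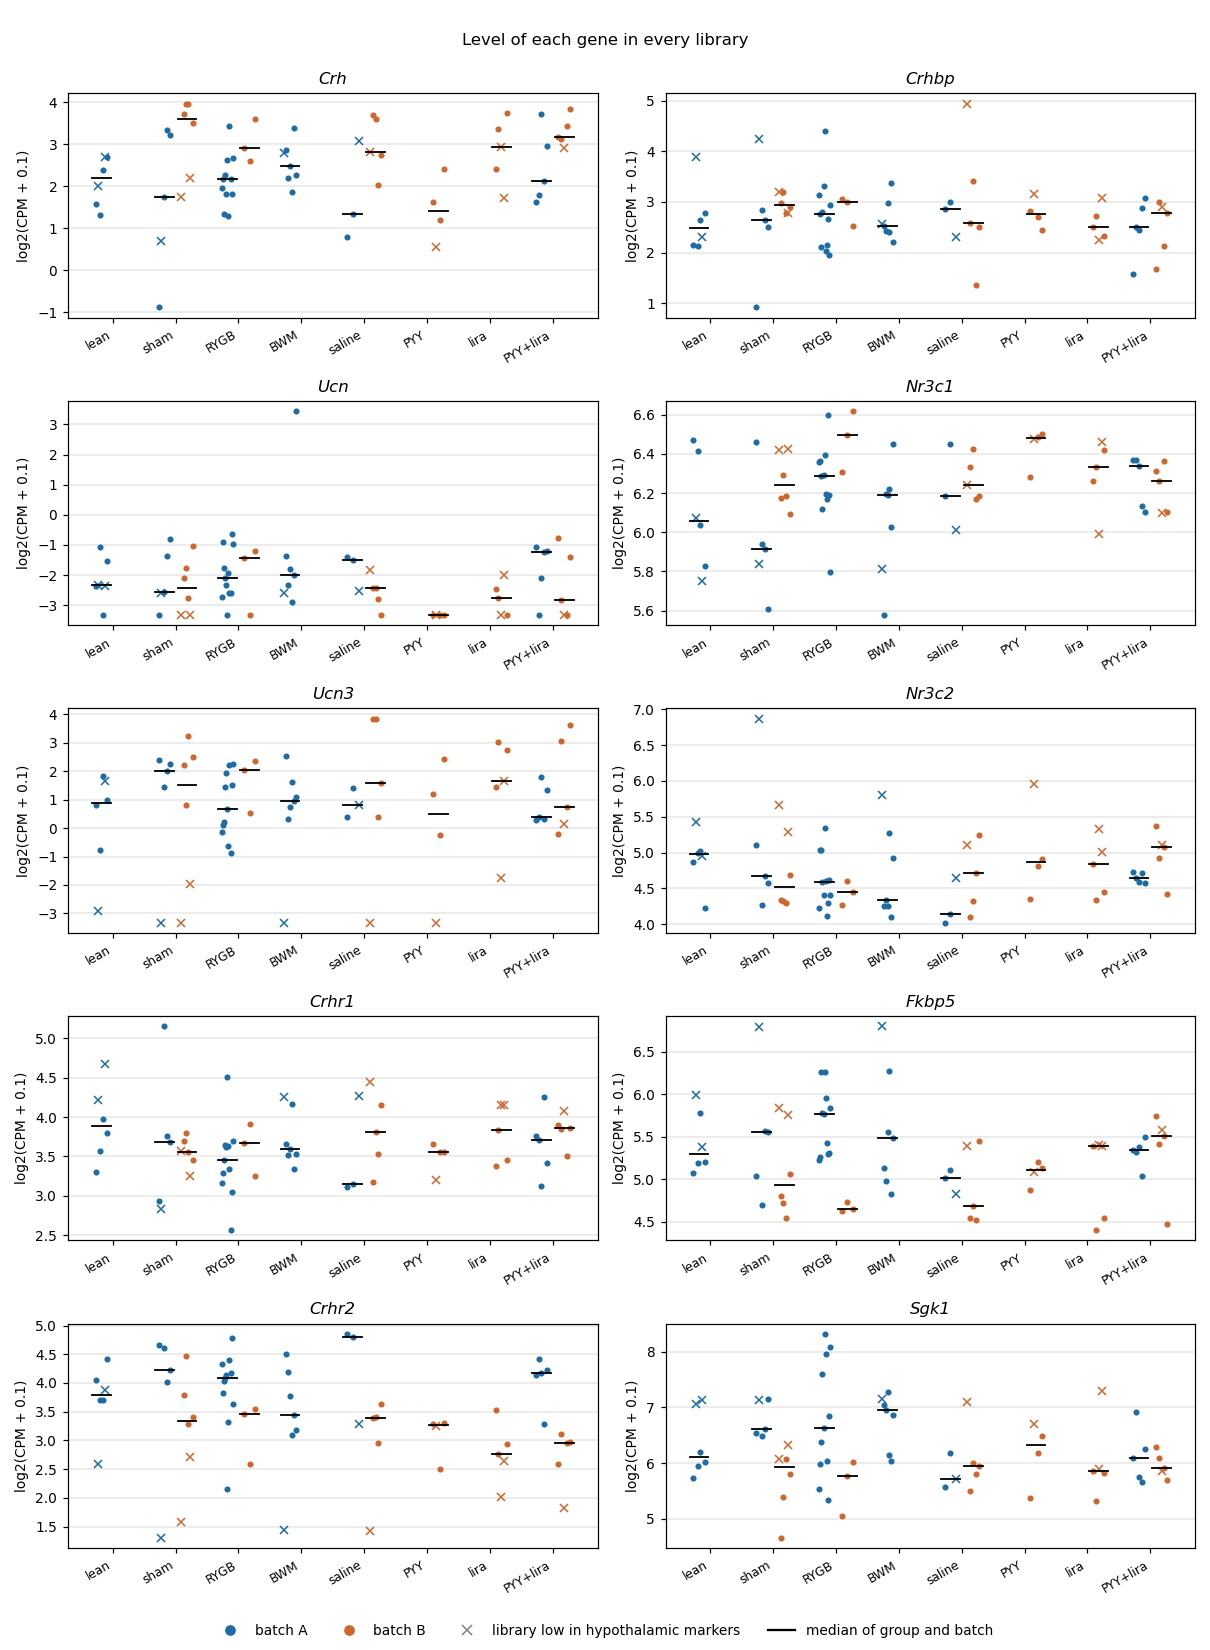
Level of the 10 genes in each of 65 libraries, as log2(CPM + 0.1), by group (horizontal axis) and batch (colour), with the median of each group and batch as a line and the 12 low libraries as crosses. Groups overlap for nearly every gene, *Ucn* is high in 1 BWM library at 10.8 CPM, and *Crh* is low in the 4 PYY3-36 libraries at 1.38 to 5.20 CPM.

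When the groups were put in order by mean level within each batch, neighbours in the order were mostly not apart. Of 100 neighbouring pairs over the 10 genes and both batches, 3 differed by more than the larger of their standard deviations. These were *Crh* between liraglutide and PYY3-36 in batch B, and *Nr3c2* and *Fkbp5* between PYY3-36 + liraglutide and saline in batch A. In an edgeR quasi-likelihood fit with group and batch as terms, the test of any difference among the 8 groups called 1 of the 10 genes and 3.76% of all genes tested; a gene counts as called when its p, adjusted over all genes by Benjamini-Hochberg, is under 0.05. That gene was *Ucn* (adjusted p = 0.0226), and the call was lost without BWM replicate 7 (adjusted p = 0.387).

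Between the 2 periods the same fit called 3 of the 10 and 40.7% of all genes, so the members were not called more often than other genes. *Crh*, the peptide that opens the axis, was 0.91 ± 0.26 higher in batch B on the log2 scale (± is the standard error of the fit; adjusted p = 0.00319), with a median of 7.47 CPM in batch B and 4.40 CPM in batch A. *Crhr2*, the receptor for the urocortins, was lower in batch B by 1.01 ± 0.23 (log2 fold change -1.01, adjusted p = 0.000316; medians 8.17 and 16.6 CPM). *Sgk1*, a kinase induced by both steroid receptors, was also lower in batch B (log2 fold change -0.63 ± 0.24, adjusted p = 0.0278; medians 59.8 and 89.8 CPM). That call was lost when RYGB replicate 12, 13 or 14 or PYY3-36 + liraglutide replicate 2 was left out (adjusted p = 0.0514 to 0.0701). *Fkbp5*, a chaperone that holds the glucocorticoid receptor in a form of low affinity, had a log2 fold change of -0.37 ± 0.17 (adjusted p = 0.0748), and *Nr3c1* one of 0.14 ± 0.07 (adjusted p = 0.103).

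Of the peptides, *Crh* was low in the rats given PYY3-36. Their levels were 2.98, 1.38, 2.17 and 5.20 CPM, the second of these from a low library. The saline libraries of the same batch had 6.92, 12.9, 12.03, 3.95 and 6.64 CPM, and the sham libraries of that batch 3.24, 13.1, 15.6, 15.4, 4.51 and 11.2 CPM. All 4 PYY3-36 libraries were below the median of either control group, but the ranges overlapped with both. The 5 liraglutide libraries, at 5.22, 10.2, 7.48, 3.21 and 13.4 CPM, and the 5 libraries of the combination in batch B, at 7.46 to 14.3 CPM, were spread over much the same range as the controls.

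In the fit, *Crh* in PYY3-36 against saline had a log2 fold change of -1.48 ± 0.53 and was not called (edgeR, adjusted p = 0.652). Within batch B alone the change was -1.52 ± 0.48 (adjusted p = 0.133), and without the low libraries it was -1.10 ± 0.55. Against sham, a comparison added because it uses the other control group, *Crh* was called lower, by a log2 fold change of -1.75 ± 0.52 (edgeR quasi-likelihood test with Benjamini-Hochberg adjustment, adjusted p = 0.0309). It was the 1 member called there, where 8.35% of all genes were called. The call was lost without PYY3-36 replicate 1, 2 or 3 (adjusted p = 0.0679, 0.108 and 0.0878) and without the low libraries (log2 fold change -1.92, adjusted p = 0.101). The PYY3-36 libraries are shared by the comparison with saline and the one with sham. Markers of the paraventricular and supraoptic nuclei, the first of which holds many CRH neurons, summed to 347.7, 29.0, 448.4 and 2388 CPM in the PYY3-36 libraries, in the order of the *Crh* levels above. Their median was 398 CPM, against 907 CPM in saline and 1097 CPM in sham, where both medians hold batch A as well. The fourth PYY3-36 library was highest in these markers and in *Crh*, and the second was lowest in both. The third had more of these markers than the first and less *Crh*. The part of these markers in the *Crh* level was not tested.

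The other 9 genes were not called in PYY3-36 against saline, nor was any other gene (0% of 21871 by edgeR, with 1649 at an unadjusted p under 0.05). DESeq2 called 0 of the 10 as well, and 2 of the 10, *Crh* and *Ucn*, were at an unadjusted p under 0.05 in edgeR. *Nr3c2* had a log2 fold change of 0.55 ± 0.34, *Crhbp* of -0.48 ± 0.43 and *Ucn3* of -1.36 ± 1.04. *Ucn* had 0 counts in 4 of 4 PYY3-36 libraries and 0 to 9 counts in the saline libraries, so no fold is given.

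*Ucn*, urocortin, is chiefly a product of midbrain neurons, and it was near the detection limit here. It was at 0 counts in 16 of 65 libraries and at 3 counts or fewer in 38. BWM replicate 7 stood apart, with 366 counts and 10.8 CPM. The next highest library, RYGB replicate 10, had 16 counts and 0.547 CPM, and the other BWM libraries had 0.065, 0.291, 0.097, 0.189, 0.036 and 0.148 CPM. In BWM against sham the log2 fold change was 3.17 ± 0.89 (edgeR, adjusted p = 0.0882), and without BWM replicate 7 it was -0.38 (adjusted p = 0.950). In RYGB against BWM it was -2.93 ± 0.76 (adjusted p = 0.0723), and without that library 0.62 (adjusted p = 0.752). *Ucn* was called in BWM against sham without BWM replicate 1, and in RYGB against BWM without BWM replicate 1, 3 or 4 (adjusted p = 0.0291 to 0.0386).

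The same library had the highest summed level of the 7 meningeal markers among the 65, at 1911 CPM against 1714 CPM in the next and a median of 168.7 CPM. It was also highest for endothelial markers (403.6 CPM, next 336.8 CPM) and second for pituitary markers (1124 CPM, median 5.79 CPM). Its midbrain markers, which are of dopamine and serotonin neurons, summed to 16.8 CPM (median 2.39 CPM) and ranked 14th. Its hypothalamic markers, at 3018 CPM (median 1726 CPM), also ranked 14th. The part of these tissues in the *Ucn* level was not tested.

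*Ucn3*, urocortin 3, made in the hypothalamus and the amygdala, varied over a wide range inside every group. It ran from 0 to 14.4 CPM with a median of 2.03 CPM, and the 5 libraries at 0 counts were all low libraries. Saline in batch B had 0, 1.197, 2.93, 14.1 and 14.4 CPM, which spans the values of all other groups. Its log2 fold changes were smaller than their standard errors in 7 of the 8 comparisons, from -0.51 ± 0.85 (lean against sham) to -0.08 ± 0.74 (RYGB against BWM). The exception was PYY3-36 against saline, given above.

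**Figure D2:**
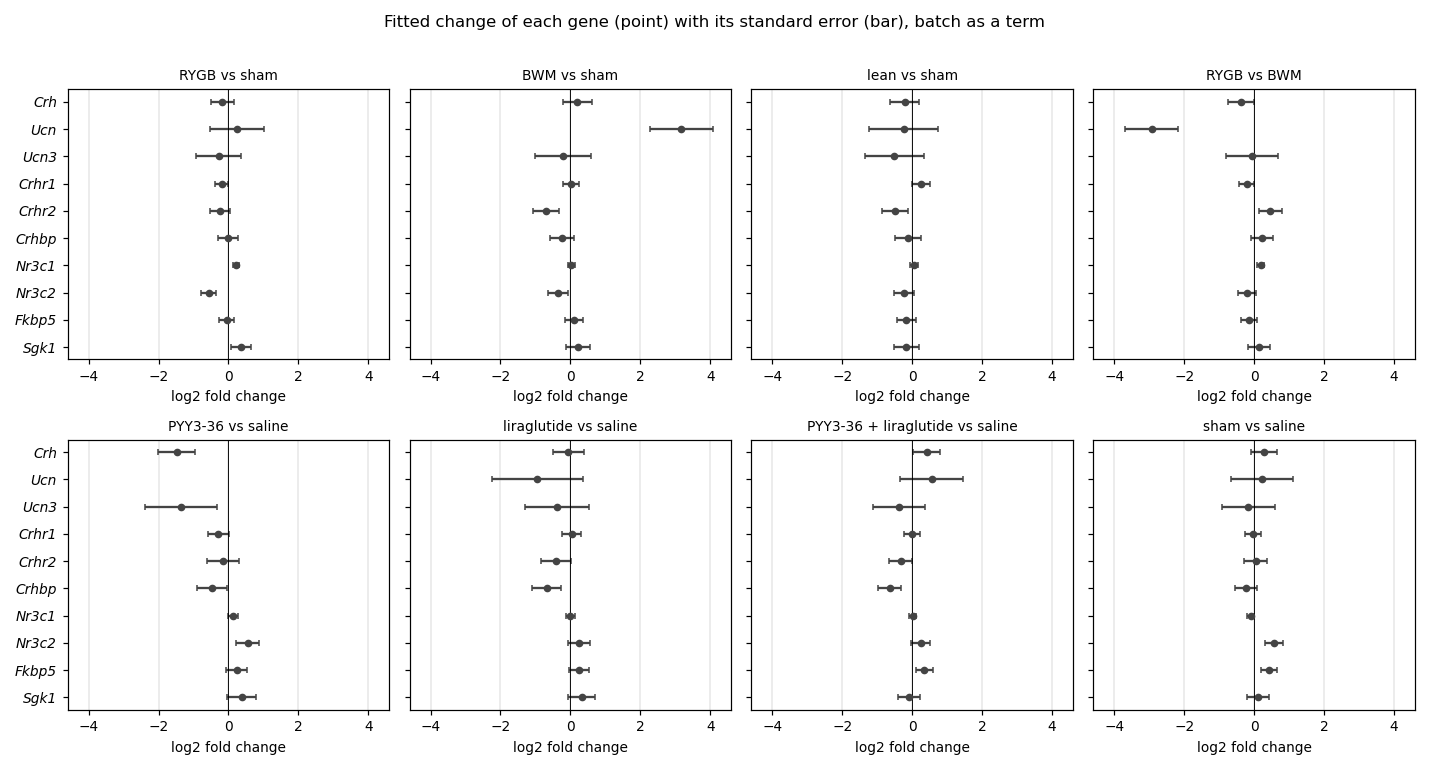
Log2 fold change (horizontal axis) of each gene in 8 comparisons, as a point with its standard error as a bar, from the edgeR fit with batch as a term. *Ucn* in PYY3-36 against saline is left out because all 4 treated libraries had 0 counts, and none of the 10 genes was called in any of the 8.

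Of the receptors for these peptides, *Crhr1* binds CRH with high affinity and is found through the forebrain, and *Crhr2* marks parts of the hypothalamus such as the ventromedial nucleus. In the 8 comparisons *Crhr1* had log2 fold changes from -0.30 ± 0.30 (PYY3-36 against saline) to 0.25 ± 0.25 (lean against sham), and none was called. Sham replicate 3 had 35.5 CPM, and the other sham libraries of batch A had 7.003 to 13.4 CPM. For *Crhr2*, BWM against sham gave -0.70 ± 0.37 (edgeR, adjusted p = 0.433) and lean against sham -0.50 ± 0.38 (adjusted p = 0.614). The BWM libraries had 2.63, 22.7, 18.2, 13.6, 8.44, 10.7 and 8.94 CPM, the first of them a low library, and sham in batch A had 25.3, 2.38, 24.4, 16.02 and 18.6 CPM, the second a low library. The groups overlapped.

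*Crhbp* encodes a secreted protein that binds CRH and urocortin and keeps them from the receptors. In both liraglutide groups it had a negative change that was not called. Liraglutide against saline gave -0.68 ± 0.41 (edgeR, adjusted p = 1) and the combination against saline -0.64 ± 0.33 (adjusted p = 1), and both use the same saline libraries. Saline replicate 4, a low library, had 30.6 CPM, and the other saline libraries of batch B had 2.48 to 10.5 CPM. Without the low libraries the combination's change was -0.20. Within batch A, which does not hold that library, it was -0.17 ± 0.51, and within batch B it was -0.90 ± 0.40 (adjusted p = 0.498). With single replicates left out, the change ran from -0.80 to -0.06 for liraglutide and from -0.76 to -0.11 for the combination.

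*Nr3c1*, the glucocorticoid receptor, ranged from 47.7 to 98.2 CPM over all libraries, the narrowest range of the 10 relative to its level. RYGB rats had a median of 78.8 CPM (55.5 to 98.2) and sham rats one of 72.1 CPM (48.7 to 87.9). In batch A the medians were 78.0 CPM for RYGB and 60.2 CPM for sham, and in batch B 90.4 and 75.5 CPM, with overlapping ranges in both. The log2 fold change was 0.22 ± 0.09 and was not called (edgeR, adjusted p = 0.0888). It was 0.30 ± 0.14 within batch A (adjusted p = 0.196), 0.23 ± 0.10 within batch B (adjusted p = 0.127) and 0.24 ± 0.09 without the low libraries (adjusted p = 0.103). With only RYGB and sham libraries in the fit it passed (log2 fold change 0.26, adjusted p = 0.0436), and leaving out RYGB replicate 11 or sham replicate 1 from the whole fit had the same effect (adjusted p = 0.0369 and 0.0280). Against saline the change was 0.11 ± 0.10.

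*Nr3c2*, the mineralocorticoid receptor, is abundant in the hippocampus and other limbic forebrain. Its value for RYGB against sham rested on the low libraries. In batch A RYGB rats had 17.2 to 40.4 CPM (median 23.98) and sham rats 19.1 to 117 CPM (median 25.5). In batch B RYGB rats had 19.1 to 24.2 CPM (median 21.8) and sham rats 19.6 to 50.7 CPM (median 22.9), so the ranges overlapped in both. The 3 highest sham libraries, at 117 CPM in batch A and 50.7 and 38.9 CPM in batch B, were the 3 low ones, and RYGB has no low library. The log2 fold change was -0.57 ± 0.22 over all libraries (edgeR, adjusted p = 0.0770), -0.79 ± 0.29 within batch A (adjusted p = 0.109) and -0.40 ± 0.34 within batch B. It was called without RYGB replicate 6 (log2 fold change -0.62, adjusted p = 0.0455). Over all fits with a single library left out, the change ran from -0.64 to -0.11, and the adjusted p of edgeR reached 0.759. Without the low libraries it was 0.07 ± 0.16 (adjusted p = 0.831), and against saline -0.01 ± 0.26. In sham against saline the same libraries entered again, with 0.56 ± 0.26 over all (adjusted p = 0.362) and 0.09 without the low ones.

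RYGB against sham called 0 of the 10 members, while it called 13% of all genes, and DESeq2 also called 0 of the 10. At an unadjusted p under 0.05 in edgeR were 2 of the 10, *Nr3c1* and *Nr3c2*, and 6570 of 21871 genes. *Crh* had a log2 fold change of -0.17 ± 0.33, *Crhr2* of -0.24 ± 0.29 and *Crhbp* of -0.03 ± 0.29. BWM against sham called 0 of 10 (0.320% of all genes) and RYGB against BWM 0 of 10 (0.343%), and DESeq2 called 0 in each. *Ucn* was at an unadjusted p under 0.05 in both, as were 2695 and 2751 of 21871 genes. Lean against sham called 0 of 10 and 0% of all genes, with 0 of the 10 and 2674 of 21871 at an unadjusted p under 0.05 in edgeR, and DESeq2 called 0 of the 10. The smallest standard errors, about 0.1, were those of *Nr3c1*, and *Ucn3* and *Ucn* had standard errors of 0.65 or more in these 4 comparisons.

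Liraglutide against saline called 0 of 10 members and 0% of all genes, with 0 members and 456 of 21871 genes at an unadjusted p under 0.05 in edgeR. The combination against saline called 0 of 10 and 0.00457% of all genes, which is 1 gene. At an unadjusted p under 0.05 were 0 members and 554 of 21871 genes. Sham against saline called 0 of 10 and 0.0137% of all genes, with *Nr3c2* and 2812 of 21871 genes in all at an unadjusted p under 0.05. DESeq2 called 0 of the 10 in each of the 3 comparisons.

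*Sgk1* had its widest range in the bypass rats. *Sgk1* in RYGB of batch A ran from 40.7 to 319.5 CPM with a median of 98.6 CPM, and 4 of the 11 libraries, at 192.8, 319.5, 247.8 and 271.8 CPM, were above every library of any other group. The 3 RYGB libraries of batch B had 32.9, 54.7 and 65.1 CPM. The sham libraries of batch A had 93.3, 141, 89.8, 97.3 and 141.8 CPM, inside the RYGB range. The log2 fold change for RYGB against sham was 0.37 ± 0.29 (edgeR, adjusted p = 0.407), with 0.33 ± 0.37 within batch A and -0.13 ± 0.39 within batch B. These 4 libraries were RYGB replicates 4, 6, 7 and 11, and none was among the 12 low libraries. RYGB replicate 6, the highest in *Sgk1*, had the lowest sum of hypothalamic markers in its group (705 CPM), the highest of all 65 libraries for choroid plexus (3638 CPM, median 59.7) and neurons (7168 CPM), and 911 CPM of cortical markers. Oligodendrocyte markers were second highest in RYGB replicate 11 (44990 CPM), and midbrain markers second highest in RYGB replicate 7 (141.6 CPM). RYGB replicate 4 had 9725 CPM of oligodendrocyte markers, 1.49 CPM of midbrain, 16.9 CPM of choroid plexus and 22.1 CPM of cortical markers. A list of genes that glucocorticoids raise, without *Sgk1* and *Fkbp5* and described below, summed to 2668, 4036, 2926 and 2826 CPM in replicates 4, 6, 7 and 11. The median of all libraries was 2410 CPM, and replicate 6 was the highest. The part of these tissues and of the listed genes in the *Sgk1* level was not tested.

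*Fkbp5* in RYGB was split by period. The 11 libraries of batch A had 37.2 to 76.8 CPM (median 54.3) and the 3 of batch B had 24.7, 26.4 and 25.1 CPM, with no overlap, as in 3.32% of all genes. Sham had 25.9 to 110.7 CPM in batch A and 23.3 to 57.2 CPM in batch B, with overlap. The change for RYGB against sham was -0.05 ± 0.21 over both (edgeR, adjusted p = 0.899), 0.02 ± 0.27 within batch A and -0.52 ± 0.31 within batch B. The test of whether the RYGB effect differed between the batches called 0 of the 10 and 0% of all genes, with 0 of the 10 and 2268 genes at an unadjusted p under 0.05, and its value for *Fkbp5* was -0.54 ± 0.43 (adjusted p = 0.717).

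Sham and saline rats, the controls of the surgical and the hormone arm, were apart in *Sgk1* in batch A and not in batch B. In batch A sham had 89.8 to 141.8 CPM and saline 47.3, 72.3 and 52.7 CPM, without overlap, which held for 8.26% of all genes in that batch. In batch B sham had 25.3 to 80.6 CPM and saline 45.2 to 136.9 CPM, and the ranges overlapped. The log2 fold change of *Sgk1* was 0.97 ± 0.52 within batch A (edgeR, adjusted p = 0.446) and -0.37 ± 0.33 within batch B. The difference between the batches was -1.34 ± 0.62 for *Sgk1* (adjusted p = 0.412) and -1.06 ± 0.51 for *Nr3c2* (adjusted p = 0.437), and neither was called. The same test called 0 of the 10 and 0.00457% of all genes, and 2 of the 10 and 2411 of 21871 genes were at an unadjusted p under 0.05. For the combination against saline the test of a difference between the batches called 0 of the 10 and 0% of all genes, with 0 members and 710 genes at an unadjusted p under 0.05.

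**Figure D3:**
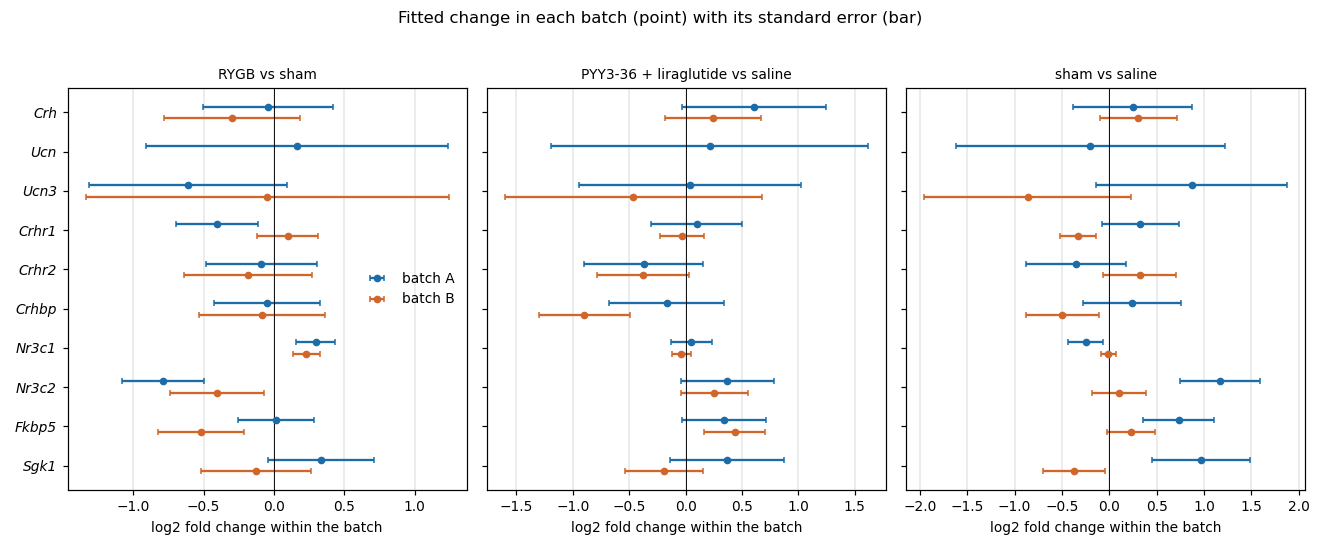
Log2 fold change (horizontal axis) of each gene within batch A and within batch B, as points with standard errors as bars, for the 3 comparisons present in both batches. *Sgk1* in sham against saline is 0.97 in batch A and -0.37 in batch B, *Nr3c1* in RYGB against sham is alike in both, and *Ucn* did not pass the count filter in batch B.

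The levels of several members differed between the low libraries and the rest. Median *Ucn3* was 0.0945 CPM in the 12 low libraries and 2.65 CPM in the 53 others, and median *Crhr2* was 4.96 against 12.9 CPM. *Nr3c2* was higher in the low libraries (39.5 against 23.9 CPM), as were *Sgk1* (119 against 65.7 CPM), *Crhr1* (17.7 against 12.02 CPM) and *Fkbp5* (44.8 against 36.8 CPM). *Crh* had nearly the same median in both (5.43 and 5.49 CPM). The medians were 7.86 and 6.23 CPM for *Crhbp* and 67.8 and 77.9 CPM for *Nr3c1*. These are descriptions without a test. Markers of the paraventricular nucleus had a median sum of 41.8 CPM in the low libraries and 1097 CPM in the others, and cortical markers one of 167 CPM against 28.0 CPM. Their part in the levels of the 10 genes was not tested.

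**Figure D4:**
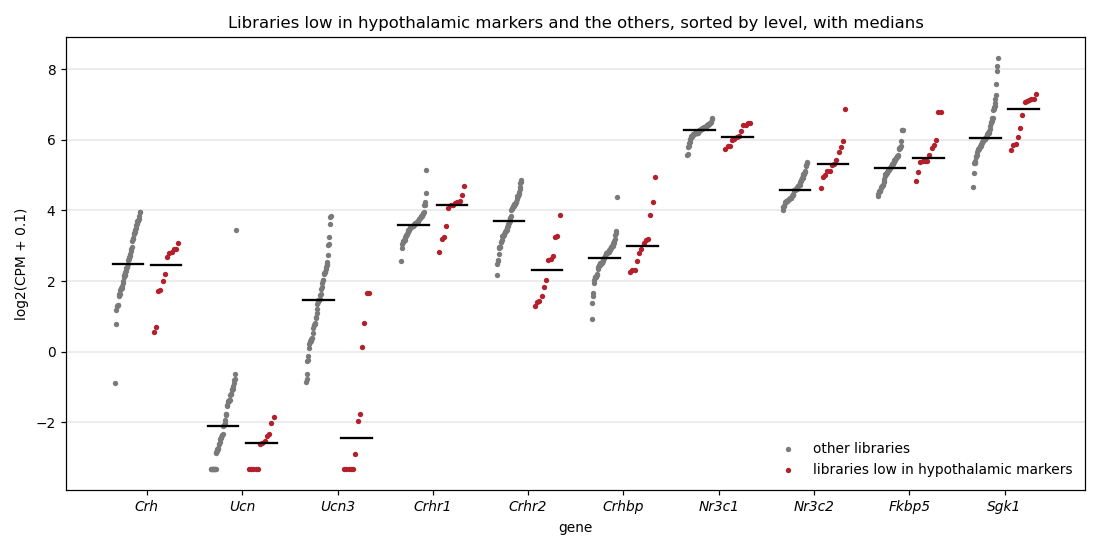
Level of each gene, as log2(CPM + 0.1), in the 12 libraries low in hypothalamic markers and in the 53 others, each set sorted by level, with the median as a bar. *Ucn3* and *Crhr2* are lower in the 12 (medians 0.0945 and 4.96 CPM), *Nr3c2* and *Sgk1* are higher (39.5 and 119 CPM), and *Crh* is alike (5.43 CPM).

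Whether the members varied together between animals of the same group and batch was examined for all 45 pairs, on log2(CPM + 1) after the mean of each group and batch was subtracted. Pearson's r and Spearman's rho both had an adjusted permutation p under 0.05 in 11 of 45 pairs over 65 libraries and in 4 of 45 over the 53 libraries, all 4 among the 11. The share that passes among pairs of other genes was not computed, so these counts say nothing particular to the members. The points share library depth and tissue makeup, and the 12 low libraries lie at the ends of several pairs. *Nr3c2* and *Fkbp5*, a steroid receptor and the chaperone that glucocorticoids induce, had the strongest relation of the 45 pairs. Their r was 0.79 and rho 0.69 over 65 libraries (permutation p = 1e-05 for each, the smallest that 100000 permutations can give; adjusted p = 0.000112 and 0.000225). The r was 0.78 within batch A and 0.80 within batch B, 0.72 without the 2 libraries farthest from the median of *Nr3c2*, and 0.68 (rho 0.58) over the 53 libraries (adjusted permutation p = 0.00045 and 0.00495).

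*Fkbp5* and *Sgk1*, both targets of glucocorticoids, had r = 0.47 and rho = 0.51 over 65 libraries (permutation p = 2e-05 and 3e-05, adjusted 0.00018 and 0.00027), and r = 0.41 and rho = 0.46 over the 53 (adjusted permutation p = 0.0410 and 0.0199). The r was 0.43 within batch A, 0.54 within batch B and 0.48 without the 2 libraries farthest from the median of *Fkbp5*. *Crh* and *Nr3c2* varied in opposite directions, with r = -0.46 and rho = -0.52 (permutation p = 0.00207 and 0.0001, adjusted 0.00776 and 0.00075), and r = -0.44 and rho = -0.48 over the 53 libraries (adjusted permutation p = 0.0375 and 0.0188). Within batches that r was -0.30 in A and -0.73 in B, and it was -0.47 without the 2 libraries farthest from the median of *Crh*. *Crh* and *Ucn3*, both peptides, varied together, with r = 0.52 and rho = 0.57 over 65 libraries (permutation p = 5e-05 and 2e-05, adjusted 0.000321 and 0.000225). Their r was 0.37 within batch A, 0.71 within batch B, 0.60 without the 2 libraries farthest from the median of *Crh* and 0.48 over the 53 libraries (rho 0.53, adjusted permutation p = 0.0009 and 0.0045). *Crhr2* and *Nr3c2* had r = -0.72 over 65 libraries but were not among the 4 pairs that passed without the low libraries.

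**Figure D5:**
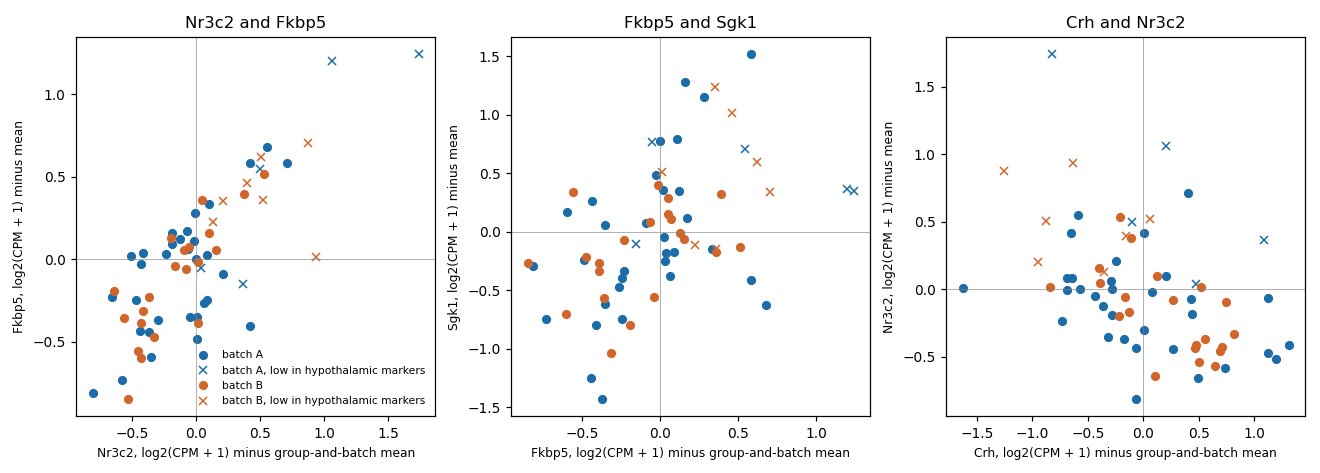
Deviation of each library from the mean of its group and batch, in log2(CPM + 1), for *Nr3c2* and *Fkbp5*, *Fkbp5* and *Sgk1*, and *Crh* and *Nr3c2*, with batches in colour and the 12 low libraries as crosses. The first pair rises together (r = 0.79), the second less closely (r = 0.47), and the third runs the other way (r = -0.46).

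The wider axis was read from 23 other genes: secreted partners of CRH, enzymes that process prohormones or convert steroids, and chaperones and cofactors of the steroid receptors. Of the 21 tested, 1 rose and 1 fell in RYGB against sham, with a median log2 fold change of 0.08 against -0.02 for all genes; 2 of 21 is not above the 13% of all genes called there. *Ncoa2*, a coactivator of steroid receptors, rose by 0.79 ± 0.17 on the log2 scale (edgeR, adjusted p = 0.00329), and *Hspa8*, a chaperone of the same receptors, was lower by a log2 fold change of -0.27 ± 0.09 (adjusted p = 0.0449). Without the low libraries *Ncoa2* kept its call (adjusted p = 0.0280) and *Hspa8* lost it (adjusted p = 0.0509). Within batch A 0 of the 21 were called (2.43% of all genes), with 5 at an unadjusted p under 0.05, and within batch B 4 rose (11.8% of all genes).

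A second list held 26 genes that glucocorticoids raise in many tissues, of which 25 were tested. In RYGB against sham 3 of the 25 rose and 0 fell, a share close to the 13% of all genes called there, and the median was 0.12. *Hif3a*, a hypoxia-inducible factor that restrains its relatives, rose by 2.24 ± 0.46 (edgeR, adjusted p = 0.00203). *Pdk4*, which limits the use of glucose by mitochondria, rose by 1.06 ± 0.26 (adjusted p = 0.00570), and *Gjb6*, an astrocyte connexin, by 0.67 ± 0.21 (adjusted p = 0.0289). Without the low libraries *Hif3a* and *Pdk4* were called (adjusted p = 0.0210 and 0.0353) and *Gjb6* was not (adjusted p = 0.105). *Fkbp5* and *Sgk1*, which belong to the same response, were not called in that comparison. Against saline 0 genes of either list were called in RYGB, with 1 of the 25 at an unadjusted p under 0.05, and 0.00457% of all genes were called. Within batch A 2 of the 25 rose (2.43% of all genes called), and within batch B 0 were called (11.8% of all genes), with 6 at an unadjusted p under 0.05.

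In BWM against sham 0 of the 25 were called, with 7 at an unadjusted p under 0.05 and a median of 0.31, while DESeq2 called 1. Over all genes 0.320% were called, 2695 of 21871 were at that unadjusted p, and the median was -0.0009. In lean against sham, RYGB against BWM and each of the hormone groups against saline edgeR called 0 genes of either list, with 0 to 7 at an unadjusted p under 0.05, and DESeq2 called at most 1. Of all genes, 0% to 0.343% were called in these comparisons, with 456 to 2751 of 21871 at that unadjusted p. In PYY3-36 against sham *Ncoa2* (0.91, adjusted p = 0.0206), *Hif3a* (2.77, adjusted p = 0.0117) and *Pdk4* (1.19, adjusted p = 0.0286) rose, which is 1 of the 21 and 2 of the 25 where 8.35% of all genes were called, and the sham libraries are those of the RYGB comparison. Between the batches 1 of the 25 was higher and 13 were lower in batch B, with a median of -0.30, where 40.7% of all genes were called. *Hif3a* differed most among the named genes, by a log2 fold change of -3.03, with *Zbtb16* at -1.41, *Cebpb* at -1.12, *Per1* at -0.85, *Pdk4* at -0.81 and *Errfi1* at -0.47. In the list of 23, 9 of the 21 tested were called between the batches, close to the share of all genes; 5 were higher in batch B, among them *Ptges3* (0.50) and *Cpe* (0.40), and 4 were lower, among them *Ncoa2* (-0.62) and *H6pd* (-0.52).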

How the data were processed

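Poly-A RNA of 65 hypothalami, 1 animal each, was sequenced in 75 nt reads. According to the methods of the study and the submitters' processing notes, reads were trimmed with cutadapt (1.16 in the notes, several versions in the methods), aligned to Rnor_6.0 with STAR 2.7.2b and counted over RefSeq genes with featureCounts 1.6.4 on the reverse strand, with reads of several places or genes counted as fractions. What the authors deposited are estimated counts, not normalized: 30.3% of values above 0 were not whole (58.5% for *Fkbp5*, 29.2% for *Sgk1*, at most 1.54% for the other members), at a tolerance of 1e-06. *Fkbp5* and *Sgk1* thus held reads counted as fractions in more libraries than the other members did. The percentages count library values that are not whole, so they do not give the share of reads concerned.

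Counts were rounded and fitted with edgeR 4.0.16 (R 4.3.3): trimmed mean of M-values, a minimum count of 10 and total of 15 in filterByExpr, and a robust quasi-likelihood test with group and batch as terms over all 65 libraries, so that groups share 1 estimate of the spread. A gene was called at a Benjamini-Hochberg adjusted p under 0.05 over 21871 genes. The alternatives were DESeq2 1.42.0, with group and batch, and with shrinkage, which the study's methods name, on group alone (the study's cutoff on fold size was not applied), with other scalings, filters, sample sets, marker scores as covariates and each replicate left out. Scripts were tested on simulated data. Correlations used 100000 permutations within group and batch (two-sided). The 0 identical libraries were found among all pairs. Standard errors of the fit include the spread between animals. A floor covers counting error only, and one of 3 counts was worth 0.0766 to 0.165 CPM.

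The members, lists and comparisons were chosen with earlier results of these data known. All members are named; of the 2 lists, up to 6 called genes per comparison by adjusted p; and the 3 genes most like each member, of which 1 is not reported here. Groups, numbers and batches come from the labels. The same replicate numbers deviated together in liraglutide and saline (r = 0.36 to 0.68 in 5 of 5 pairs), where a block on the number called 0 members, as the fit without it did. Replicates 3 and 4 of both groups are low libraries, and the pairs of replicates 1 to 3 span the 2 batches. Fits within a batch used that batch's libraries alone.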

Additional observations from a re-analysis of the deposited data

Results flagged for a closer look

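Within groups of 4 to 10 libraries of 1 batch, 89 sets of values were checked for a library far from the rest, and 10 held one by Dixon's criterion, which chance alone meets in about 5% of sets. The library with the highest *Ucn* was BWM replicate 7, at 10.8 CPM against 0.291 CPM in the next of its group. Among the receptors and the binding protein, sham replicate 3 was high in *Crhr1* (35.5 CPM), PYY3-36 replicate 3 was low in *Crhr2* (5.54 CPM, next 9.44 CPM), and *Crhbp* was high in lean replicate 2 (14.6 CPM, next 6.79 CPM) and in saline replicate 4 (30.6 CPM, next 10.5 CPM). PYY3-36 replicate 1 was low in *Nr3c1*, at 77.9 CPM against 89.1 CPM in the next. Sham replicate 2 was high in both *Nr3c2* (117 CPM, next 34.5 CPM) and *Fkbp5* (110.7 CPM, next 47.5 CPM). *Sgk1* was high in liraglutide replicate 4 (156 CPM, next 59.3 CPM) and in saline replicate 4 (137 CPM, next 64.2 CPM).

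Of the 10 values, 6 belong to libraries low in hypothalamic markers: lean replicate 2, liraglutide replicate 4, and sham replicate 2 and saline replicate 4 with 2 values each. The part of tissue makeup in them was not tested.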

How the results depend on the processing

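No value changed direction past its threshold. In RYGB against sham the count of members called, 0, became 1 with only the groups compared in the fit (*Nr3c1*). In BWM against sham it went from 0 to 1 with no batch term and with DESeq2 without batch and with shrinkage (*Ucn*). In RYGB against BWM it went from 0 to 1 in those fits, with the hypothalamus score as a covariate and without the low libraries (*Ucn*). In PYY3-36 against saline it went from 0 to 1 with sham as the control (*Crh*). For any group difference, 1 became 0 without the low libraries and with pituitary, choroid plexus and meninges scores as covariates; with cortex, striatum and thalamus scores it stayed 1, but the gene was *Fkbp5* (adjusted p = 0.0226). Between batches, 3 became 5 without the low libraries. Pairs that passed went from 11 to 4 without the low libraries and to 5 within batch A. The causes were not tested.

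With the replicate number as a block, the count for any group difference was 0 and that between batches 1 (*Crhr2*), and no other count of members moved. Apart from liraglutide and saline, same-numbered libraries did not deviate together throughout (RYGB and sham: over 0.1 in 4 of 11 pairs, r = -0.43 to 0.36). In liraglutide and saline, replicates 3 and 4 were low libraries in both groups. Saline replicates 1 to 3 are of batch A and all liraglutide libraries of batch B. The part of tissue makeup in these pairs was not tested. The replicate block may thus join libraries that share only a number.

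With each replicate left out in turn, the members called ranged from 0 to 1 in RYGB against sham, BWM against sham, RYGB against BWM, PYY3-36 against sham and any group difference, from 2 to 4 between batches, and from 0 to 0 in the other comparisons. *Ucn* could not be fitted within batch B or with only BWM and its control, where it failed the count filter. Of 136 counts of members under the other alternatives, 123 equalled the main count or were within 1.5 times it. The main count was 0 in most comparisons, and there only another 0 was within that limit. Low counts affect *Ucn* and *Ucn3* most, since 38 and 7 of 65 libraries held 3 counts or fewer. For *Ucn3* the 5 libraries at 0 counts were all low libraries, and the other 53 had at least 0.45 CPM.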

Other observations

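The genes whose level followed each member most closely between animals were sought among genes with a mean of at least 1 CPM, by Pearson's r of log2(CPM + 1) after the mean of each group and batch was subtracted, as a description over 65 libraries that share depth and tissue makeup. *Sgk1* was most like *Ddit4* (r = 0.83; 0.79 without the 12 low libraries), *Gpd1* (0.79) and *Arrdc2* (0.79); *Ddit4* and *Arrdc2* are in the list of genes that glucocorticoids raise. *Fkbp5* was most like *Nab2* (0.87), *Synpo* (0.85) and *Pcdhga1* (0.84), and *Nr3c2* like *Cdc40* (0.89), *Adcy9* (0.86) and *Ptk2b* (0.86). *Nr3c1* was most like *Adam10* (0.75; 0.83 without the low libraries), *Magt1* (0.73) and *Creb3l2* (0.73).

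*Ucn3* was most like *Pnoc*, the precursor of nociceptin (0.80; 0.68 without the low libraries), *Slc7a3* (0.75) and *Slc35g2* (0.73). *Crhr2* was most like *Magel2* (0.83; 0.72 without the low libraries), *Gdpd2* (0.83) and *RGD1560608* (0.82). *Crh* was most like *Asic2* (0.68), *LOC108348180* (0.67) and *Rab3b* (0.66), *Crhr1* like *Panx2* (0.69), *Clec2l* (0.69) and *Gls2* (0.69), and *Crhbp* like *Ttc9b* (0.78), *Syn1* (0.77) and *Crtac1* (0.74). *Ucn*, near 0 counts in most libraries, was most like *Adamts1* (0.57) and *Vcam1* (0.55).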
